A study of Homo sapiens with 4 samples.

Results

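The messenger RNAs of the factors that make and destroy histone messages were examined in BEAS-2B, a human bronchial epithelial cell line that has been immortalized, after exposure to formaldehyde. The set held 7 of the 23004 gene names in the files, given by a list of names. They are NPAT and CASP8AP2 of histone gene transcription, LSM10, LSM11 and ZNF473 of the U7 particle, SLBP of the stem-loop, and ERI1 of decay. One group of 2 libraries came from cells left untreated and the other group of 2 from cells given 100 µM formaldehyde for 48 h, with dose and time from the protocol label and the compound from the series title. No allele or transgene is given for either group, and all libraries come from this 1 cell line. The study's title concerns chromatin assembly and cell transformation, and the comparison asks whether formaldehyde changes these RNAs.

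Most messenger RNAs end in a poly(A) tail, but those of the replication-dependent histones end in a short stem-loop. SLBP, the stem-loop binding protein, holds that stem-loop from processing in the nucleus to translation in the cytoplasm. Downstream of it, the U7 small nuclear ribonucleoprotein pairs with the message and brings the nuclease that cuts it. The genes themselves are switched on in S phase at histone locus bodies, where NPAT and FLASH, the product of CASP8AP2, gather. When replication stops, the tail is oligouridylated and the exonuclease ERI1 trims into the stem.

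The stem-loop is the sequence on which SLBP and ERI1 act, and it is shown here for the 4 histone genes with the highest mean FPKM among those tested that matched it. Letters are DNA of the GENCODE 29 transcripts (GRCh38), 5′ to 3′, with the stem-loop in capitals.
HIST2H2AA3: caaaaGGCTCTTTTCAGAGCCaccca
HIST1H2BD: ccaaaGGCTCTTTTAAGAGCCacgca
HIST1H4J: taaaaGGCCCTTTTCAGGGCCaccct
HIST1H2BE: ccaaaGGCTCTTTTCAGAGCCa
The pattern searched, on the transcript strand alone, was GG, 3 free bases, TTNTNA, 3 free bases and CC. It lay in the last 100 nt of a transcript of 12 of 64 core histone genes and in 0.161% of 83119 protein-coding transcripts of at least that length. A gene with no match lacks these letters in this window, and nothing more follows from it. Of the 12 genes, 7 held the form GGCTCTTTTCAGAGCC.

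The ring of proteins on U7 RNA is where LSM10 and LSM11 sit, in place of the Sm proteins SNRPD1 and SNRPD2 of spliceosomal particles. The U7 sequence (RNU7-1, GENCODE 29) is shown with the site that this ring binds, positions 21 to 31 from the 5′ end of 63 nt, in capitals.
RNU7-1: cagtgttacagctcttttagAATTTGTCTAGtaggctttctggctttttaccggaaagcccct
U7 RNA itself was not analysed here.

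Expression is given as FPKM, fragments scaled to transcript length in kilobases and to the library's mapped fragments, summed over the transcripts of a gene, a scale on which genes of different length can be compared. Each library held 14.2 to 26.5 M (M, mega) mapped fragments, as recovered from the deposited values. Some keratins of simple epithelium were abundant. KRT8 stood at 291 and 290.4 FPKM in the untreated libraries and at 447 and 416 FPKM in those with formaldehyde. KRT19, another such keratin, was at most 0.378 FPKM, and EPCAM, another epithelial marker, at most 3.18 FPKM. The 11 bronchial epithelial markers summed to 737 and 825 as against 1402 and 1207 FPKM, and of 7 tested 4 were higher and 3 lower with formaldehyde. KRT7 and KRT18, both higher, had an unadjusted limma p under 0.05, and the 3 lower were KRT14, KRT17 and NKX2-1. KRT5 and TP63, markers of basal airway cells, were listed at 0 in every library, and CDH1, the epithelial cadherin, was at most 0.631 FPKM. COL1A1, a collagen typical of fibroblasts, stood at 137 to 568 FPKM, THY1 at 139 to 203 FPKM and PDGFRB at 7.40 to 30.0 FPKM. The other fibroblast markers were near 0, with COL1A2 at most 1.34, LUM 0.405, DCN 0.0725, COL3A1 0.0214 and PDGFRA 0.0187 FPKM. The summed level of the 8 fibroblast markers was 445 and 803 FPKM in untreated cells, as against 284 and 442 FPKM after formaldehyde. The 8 leukocyte markers summed to 5.61 to 14.9 FPKM, with CD3E listed at 0, and the 5 endothelial markers to at most 0.207 FPKM. A list of nuclear RNAs, small RNAs and host transcripts of small nucleolar RNAs, such as GAS5 and SNHG12, had 7 tested. Their median stood apart in formaldehyde replicate 1. It was 0.58 above the untreated mean there on the log2 scale, as against -0.11 in replicate 2. MALAT1 and NEAT1 of this list were instead highest in untreated replicate 2, at 92.5 and 596 FPKM. The part of these differences in the results was not tested. The labels do not say whether replicates were separate cultures, and the p-values reflect only how far these libraries differ among themselves, which could be technical.

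None of the 7 genes passed the test for a change with formaldehyde (limma on log2(FPKM + 1), Benjamini-Hochberg adjusted p of 0.9999 for each), and 0 had an unadjusted p under 0.05. Over all 12407 genes tested, 0.153% passed (0.0806% higher and 0.0725% lower with formaldehyde), and 2.76% had an unadjusted p under 0.05. LSM10 was the 1 gene with both formaldehyde libraries above both untreated ones, a pattern seen in 16.2% of all genes tested. NPAT and CASP8AP2 were the 2 genes with both formaldehyde libraries below both untreated ones, a pattern seen in 10.7%. Groups that did not overlap in either direction thus numbered 3 of 7, beside 26.9% of all genes tested. The other 4, SLBP, LSM11, ZNF473 and ERI1, overlapped between the groups. The median log2 fold change of the 7 was -0.11, beside 0.03 over all genes tested, and it became 0.02 without untreated replicate 1 and -0.27 without untreated replicate 2. LSM10 and ZNF473 had higher values and the other 5 lower, and with libraries rescaled to an equal FPKM sum 1 was higher and 6 lower. In cells analysed in bulk, fewer cells in S phase and less RNA per cell cannot be told apart. With 2 libraries in each group, the smallest p of an exact permutation test is 0.333.

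**Figure D1:**
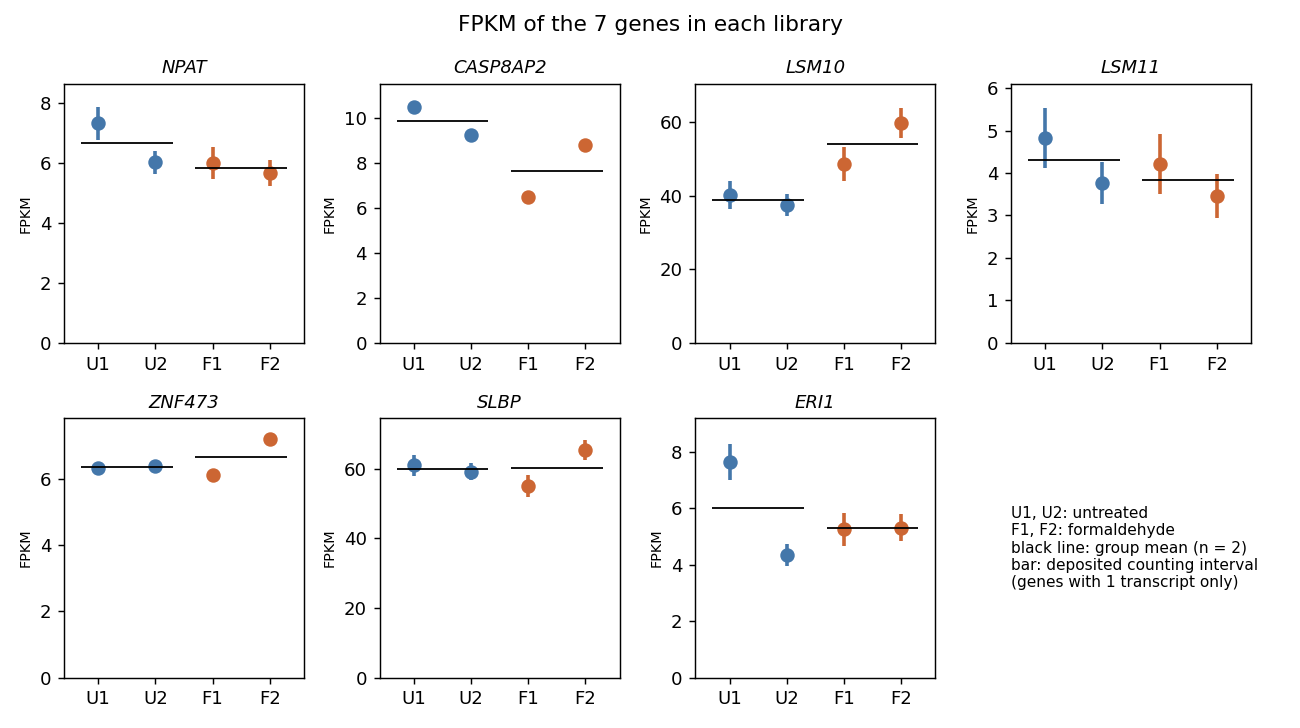
FPKM (vertical axes, from 0) of the 7 genes in untreated libraries U1 and U2 and formaldehyde libraries F1 and F2, with the group mean as a black line and, for genes with 1 transcript, the deposited counting interval as a bar. LSM10 is higher in both formaldehyde libraries, NPAT and CASP8AP2 lower, and ERI1 differs most between the untreated pair.

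SLBP was the most abundant of the set. It stood at 61.0 and 59.1 FPKM in the untreated libraries, replicate 1 first, and at 55.0 and 65.4 FPKM with formaldehyde, so that the formaldehyde libraries lay on either side of the untreated pair. The group means were 60.04 ± 1.30 FPKM and 60.2 ± 7.34 FPKM (SD, n = 2 each), a ratio of 1.002, and the log2 fold change was -0.0017 ± 0.20 (SE). Its 95% interval by limma ran from -0.53 to 0.53. The sign turned with the libraries used, since leaving out untreated replicate 1 gave 0.02 and leaving out formaldehyde replicate 1 gave 0.12. SLBP lies on chromosome 4 (hg19, 1694527 to 1714030, minus strand), with 1 listed transcript of 8 exons and 1725 nt. Between 1190 and 2380 fragments per library stood behind its values, and the half-width of the deposited counting interval was 4.10% to 5.80% of the value. The intervals of the formaldehyde libraries, 51.8 to 58.2 and 62.6 to 68.1 FPKM, did not overlap, so this pair differed by more than counting error.

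Genes whose product acts on or with SLBP protein did not pass either. Of 11 tested (SLBP partners, regulators of its stability and factors of histone message translation), 0 were called, 7 had higher and 4 lower values with formaldehyde, and the median was 0.09. It was -0.15 without untreated replicate 2, and with other scalings of the libraries 6 were higher and 5 lower. CCNF, the F-box protein cyclin F that targets SLBP for destruction in G2, stood at 13.8 and 12.0 FPKM in untreated cells, as against 10.8 and 9.91 FPKM after formaldehyde. MIF4GD, the bridge between SLBP and the translation machinery, stood at 20.9 and 17.8 against 20.5 and 24.97 FPKM. CSNK2A1, the catalytic subunit of casein kinase 2, stood at 54.8 and 46.1 against 60.1 and 61.3 FPKM. For CCNF both formaldehyde libraries lay below the untreated pair, for CSNK2A1 both lay above it, and for MIF4GD the groups overlapped. Of the 11, 3 were higher without overlap and 1 lower, beside 16.2% and 10.7% of all genes tested.

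The 5 genes most like SLBP over the 4 libraries were C11orf83, BOD1L1, LIX1L, PHF2 and SNX12. Likeness was the Euclidean distance between profiles of log2(FPKM + 1), each centred on its own mean, among 8682 genes with a mean of at least 5 FPKM and a transcript of at least 300 nt. The distances ran from 0.0168 for C11orf83 to 0.0231 for SNX12, against 0.419 for the median gene. SNX12, for example, stood at 65.2, 63.4, 59.99 and 69.9 FPKM in the same order of libraries. With 4 libraries this is a description of levels only.

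LSM10, the smaller of the Sm-like proteins particular to the U7 ring, had the largest difference of the set. It stood at 40.1 and 37.5 FPKM in the untreated libraries, replicate 1 first, and at 48.5 and 59.6 FPKM with formaldehyde, so that the groups did not overlap. The means were 38.8 ± 1.79 FPKM and 54.1 ± 7.86 FPKM (SD, n = 2 each), 1.39-fold, and the log2 fold change was 0.46 ± 0.21 (SE). The 95% interval by limma was -0.08 to 1.004, and the unadjusted limma p was 0.0803. Leaving out each library gave 0.32 to 0.61, with the lowest value without formaldehyde replicate 2. The deposited counting intervals of the groups were barely apart. The upper bound was 43.9177 FPKM in untreated replicate 1 and the lower bound 43.9205 FPKM in formaldehyde replicate 1. LSM10 lies on chromosome 1 (hg19, 36859031 to 36863493, minus strand) with 1 transcript of 2 exons and 850 nt, and 435 to 856 fragments stood behind each value.

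LSM11, its partner in the ring and the binding platform for FLASH, was the least abundant of the set. It stood at 4.82 and 3.77 FPKM in untreated cells, as against 4.21 and 3.46 FPKM after formaldehyde, and the groups overlapped. In each group replicate 1 was the higher library. The log2 fold change was -0.13 ± 0.23 (SE), with a 95% interval by limma of -0.73 to 0.47, and it became 0.015 without untreated replicate 1. LSM11 lies on chromosome 5 (hg19, 157170755 to 157183746, plus strand), has 1 transcript of 2561 nt and rested on 141 to 235 fragments per library, a counting interval of 13.0% to 16.8% either way. In FPKM, a scale per length, the mean of LSM10 was several times that of LSM11 in both groups, although the proteins sit in the same ring. SNRPD1 and SNRPD2, whose places they take, stood at 77.9 and 50.2 and at 407 and 352 FPKM in untreated cells, and at 66.1 and 75.97 and at 358 and 420.4 FPKM with formaldehyde. Both overlapped between the groups.

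ZNF473, the zinc finger protein ZFP100 that joins the U7 particle to the stem-loop complex, had a similar sum in both groups but a different make-up of transcripts. The gene stood at 6.32 and 6.40 FPKM in untreated cells, as against 6.11 and 7.198 FPKM after formaldehyde, and the groups overlapped. The log2 fold change was 0.05 ± 0.20 (SE), with a 95% interval by limma of -0.47 to 0.57. Its transcript NM_015428 stood at 1.77 and 1.81 FPKM in untreated cells, as against 3.33 and 3.38 FPKM after formaldehyde. Its other transcript, NM_001006656, stood at 4.55 and 4.59 FPKM in untreated cells, as against 2.77 and 3.82 FPKM after formaldehyde. Neither overlapped between the groups, the former being higher and the latter lower with formaldehyde, as in 26.6% of 9304 transcripts of genes with several, in either direction. With the highest transcript taken in each library alone, the log2 fold change of ZNF473 was -0.29. That transcript was NM_015428 in formaldehyde replicate 1 and NM_001006656 in the other libraries, so the value mixes the transcripts. NM_015428 made up 28.0% and 28.3% of the gene's FPKM in the untreated libraries and 54.6% and 46.9% in the formaldehyde libraries.

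The ZNF473 transcripts, on chromosome 19 (hg19, 50529212 to 50552031, plus strand), differ in 122 nt, at 50534149 to 50534270, which lengthen exon 2 of NM_015428. Only reads that touch this stretch, or that span the join that skips it in NM_001006656, tell the transcripts apart. With 51-nt reads, at most 14.9 to 29.1 fragments per library would be expected over it, as a rough figure that takes every transcript to hold it. Among 9232 transcripts that made up at least 10% of a gene with several, 24.1% had shares that did not overlap between the groups, and the median absolute difference of shares was 4.99 percentage points. For ZNF473 the difference was 22.6 points, and 5.31% of these transcripts had non-overlapping shares at least as far apart. No test was run on transcripts, and this split was singled out after its values were seen.

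**Figure D2:**
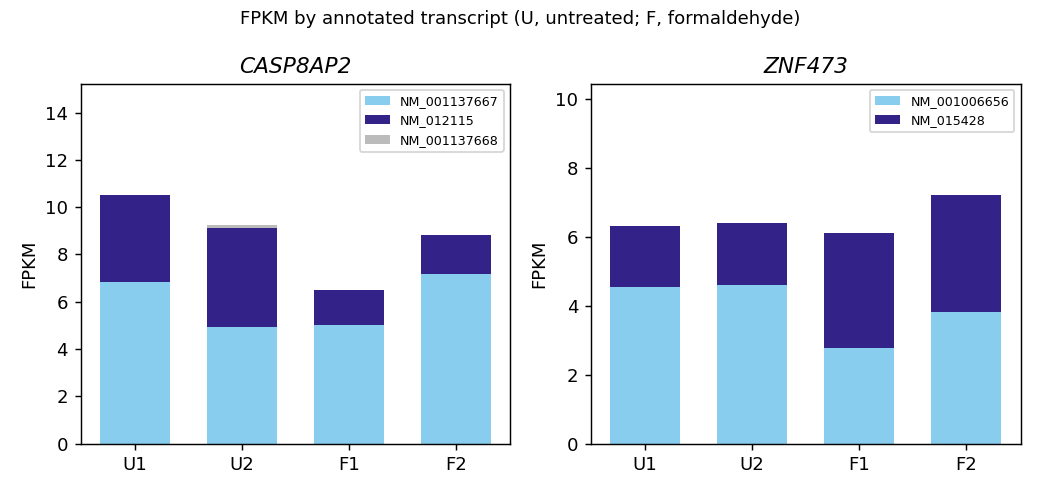
FPKM (vertical axes, from 0) of each annotated transcript of CASP8AP2 and ZNF473, stacked to the gene's sum, in untreated libraries U1 and U2 and formaldehyde libraries F1 and F2. The dark segment is smaller in both formaldehyde libraries for CASP8AP2 and larger for ZNF473.

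CASP8AP2 encodes FLASH, which binds NPAT at histone locus bodies and LSM11 in the cleavage complex. It stood at 10.5 and 9.26 FPKM in the untreated libraries, replicate 1 first, and at 6.51 and 8.82 FPKM with formaldehyde, so that both formaldehyde libraries lay below the untreated pair, replicate 2 by little. The means were 9.88 ± 0.878 FPKM and 7.67 ± 1.63 FPKM (SD, n = 2 each), a ratio of 0.776, and the log2 fold change was -0.34 ± 0.23 (SE). The 95% interval by limma was -0.93 to 0.25, and the unadjusted limma p was 0.202. Leaving out formaldehyde replicate 1 gave -0.15 and leaving out formaldehyde replicate 2 gave -0.53. The gene lies on chromosome 6 (hg19, 90539619 to 90584155, plus strand).

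The lower sum of CASP8AP2 lay in 1 of its 3 listed transcripts. NM_012115 stood at 3.67 and 4.197 FPKM in untreated cells, as against 1.49 and 1.64 FPKM after formaldehyde, and the deposited intervals of the groups did not overlap. NM_001137667 stood at 6.82 and 4.91 FPKM in untreated cells, as against 5.02 and 7.18 FPKM after formaldehyde, and overlapped. With the highest transcript alone the log2 fold change of the gene was 0.046. The third, NM_001137668, was at most 0.148 FPKM. NM_012115 made up 35.0% and 45.3% of the gene untreated and 22.9% and 18.6% with formaldehyde. That difference was -19.4 points, and 6.75% of the 9232 transcripts had non-overlapping shares at least as far apart. NM_012115 differs from NM_001137667 by 39 nt, at 90539787 to 90539825, which lengthen exon 1. By the same rough figure at most 8.25 to 21.8 fragments per library would touch it, and the split was singled out after its values were seen.

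NPAT, the coactivator that cyclin E and CDK2 phosphorylate to start histone transcription, stood at 7.33 and 6.03 FPKM in untreated cells, as against 6.01 and 5.67 FPKM after formaldehyde. The groups did not overlap, but untreated replicate 2 and formaldehyde replicate 1 were nearly equal. The log2 fold change was -0.16 ± 0.21 (SE), with a 95% interval by limma of -0.70 to 0.37, and it was -0.04 without untreated replicate 1. NPAT lies on chromosome 11 (hg19, 108028119 to 108093365, minus strand), with 1 transcript of 18 exons and 5936 nt, and 490 to 914 fragments stood behind each value. Its start lies 194 nt from that of ATM, the kinase of DNA breaks, which is transcribed the other way. ATM stood at 5.37 and 3.39 FPKM in untreated cells, as against 4.25 and 3.94 FPKM after formaldehyde, and overlapped between the groups.

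The promoters of the 3 genes whose groups did not overlap are shown, 150 nt before the RefSeq start on the strand of the gene (GRCh38.p14). Capitals mark matches, on either strand, to CCAAT, TTTNGCGC (a form of the E2F site), GGGCGG (the GC box) and CGGAAG (a core of ETS sites).
NPAT, chr11:108222639-108222788, minus: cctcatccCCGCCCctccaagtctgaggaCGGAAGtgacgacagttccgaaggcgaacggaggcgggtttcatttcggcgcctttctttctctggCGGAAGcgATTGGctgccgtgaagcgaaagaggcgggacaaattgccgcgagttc
CASP8AP2, chr6:89829730-89829879, plus: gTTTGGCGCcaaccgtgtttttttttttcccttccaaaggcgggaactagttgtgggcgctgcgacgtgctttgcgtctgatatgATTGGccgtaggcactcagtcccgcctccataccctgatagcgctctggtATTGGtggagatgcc
LSM10, chr1:36397909-36398058, minus: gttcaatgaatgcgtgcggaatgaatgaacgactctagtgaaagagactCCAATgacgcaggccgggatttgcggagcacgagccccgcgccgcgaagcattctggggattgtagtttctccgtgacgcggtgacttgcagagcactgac
RefSeq windows from 250 nt before to 50 nt after the start were found for 5 of the 7 genes. In them the CCAAT box occurred in NPAT, CASP8AP2 and LSM10 and the GC box in SLBP, NPAT, CASP8AP2 and LSM11. TTTNGCGC occurred in CASP8AP2 alone and CGGAAG in NPAT alone. Over all 35116 windows the shares were 34.6% for CCAAT, 45.0% for GGGCGG, 19.5% for CGGAAG and 1.79% for TTTNGCGC.

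ERI1, the 3′ exonuclease that binds the stem-loop beside SLBP, had the widest spread between replicates. It stood at 7.65 and 4.36 FPKM in the untreated libraries, replicate 1 first, and at 5.26 and 5.32 FPKM with formaldehyde, so that both formaldehyde libraries lay between the untreated ones. The untreated intervals, 7.01 to 8.30 and 3.97 to 4.74 FPKM, were far apart. The log2 fold change was -0.11 ± 0.29 (SE), with a 95% interval by limma of -0.87 to 0.64. Leaving out untreated replicate 1 gave 0.23 and leaving out untreated replicate 2 gave -0.46, so its sign rested on which untreated library was used. ERI1 lies on chromosome 8 (hg19, 8860314 to 8890849, plus strand) and has 1 transcript of 4615 nt, with 330 to 567 fragments behind each value.

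**Figure D3:**
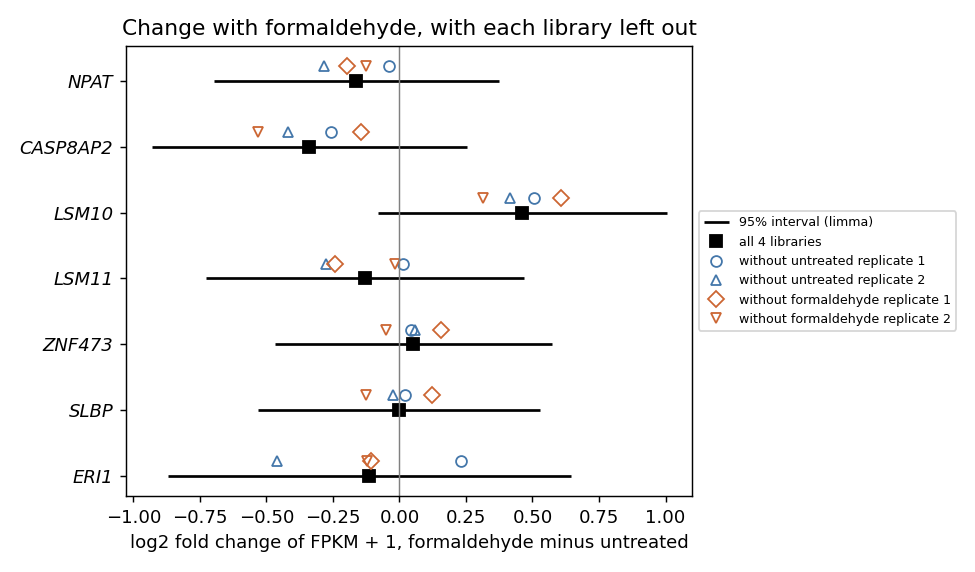
Log2 fold change of FPKM + 1, formaldehyde minus untreated (horizontal axis), for each of the 7 genes: black squares from all 4 libraries with limma's 95% interval, open symbols with 1 library left out. Every interval includes 0, and LSM10 is to the right of 0 and NPAT and CASP8AP2 to the left with any 1 library left out.

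In untreated cells the order of mean FPKM was SLBP, LSM10, CASP8AP2, NPAT, ZNF473, ERI1 and LSM11. The first 3 were each set apart from the next by libraries that did not overlap, whereas NPAT, ZNF473, ERI1 and LSM11 each overlapped with their neighbour. With formaldehyde the order was the same except that ZNF473 came before NPAT. There SLBP and LSM10 overlapped, at 60.2 and 54.1 FPKM on average, whereas the untreated libraries of these genes did not overlap. CASP8AP2 and ZNF473 also overlapped with formaldehyde, and the other neighbours did not. No listed transcript that carried the name of another gene overlapped any of the 7. The 894 transcripts with no name were not searched, so reads shared with those are not known.

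Genes listed with NPAT for histone transcription mostly had slightly lower values with formaldehyde. The list counted ATM, the neighbour of NPAT, at a log2 fold change of -0.055. It also counted YY1 (chosen after its values were seen), at -0.00083. Of 12 tested, 0 passed, 11 were lower and 1 higher, and the median log2 fold change was -0.15, as against 0.03 for all genes. Set against the untreated mean, formaldehyde replicate 1 had a median of -0.24 and replicate 2 one of -0.06. Without untreated replicate 1 the median was -0.07. CDK2, the kinase of NPAT (chosen after its values were seen), stood at 71.5 and 73.2 FPKM in untreated cells, as against 59.0 and 69.0 FPKM after formaldehyde. CCNE2, 1 of the cyclins E, stood at 15.0 and 10.2 against 10.3 and 7.92 FPKM, and CCNE1, the other, at 5.46 and 8.02 against 8.23 and 9.19 FPKM. CDK2 was lower and CCNE1 higher in both formaldehyde libraries, while CCNE2 overlapped. Of the 12, 1 was higher without overlap and 1 lower, beside 16.2% and 10.7% of all genes tested. MYBL2, a transcription factor of proliferating cells, stood at 115 and 137 against 80.2 and 130.1 FPKM and overlapped.

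The genes that build the protein ring on U7 and spliceosomal RNAs, such as the SMN complex and the methylosome, mostly had higher values. Of 13 tested, 0 passed, 11 were higher and 2 lower, in each scaling of the libraries, and the median log2 fold change was 0.20. It was 0.04 without untreated replicate 2. GEMIN5, the subunit of the SMN complex that recognizes small nuclear RNAs, stood at 14.3 and 9.80 FPKM in untreated cells, as against 20.1 and 16.8 FPKM after formaldehyde. GEMIN6 stood at 26.1 and 26.2 against 33.8 and 33.7 FPKM, and PRMT5, the methyltransferase of the methylosome (chosen after its values were seen), at 37.98 and 28.98 against 42.9 and 42.3 FPKM. In these 3 the groups did not overlap, with formaldehyde higher. Of the 13, 4 were higher in this way and 1 lower, beside 16.2% and 10.7% of all genes tested. SMN2 stood at 0.768 and 4.43 against 5.97 and 5.34 FPKM, but it is a near-identical copy of SMN1, between which the authors' software had to divide the reads.

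The Sm proteins themselves, 7 tested, had a median of 0.17 and were all 7 higher as deposited, but 4 or 5 were higher with other scalings, and the median was -0.07 without untreated replicate 2. None passed. SNRPF stood at 98.3 and 82.8 FPKM in untreated cells, as against 109 and 118 FPKM after formaldehyde, and it was the 1 gene of the 7 whose groups did not overlap, beside 16.2% of all genes that were higher in this way.

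A list of cleavage and polyadenylation factors was evenly split. It was wider than the factors that histone messages share with poly(A) messages, and FIP1L1, for example, belongs to the poly(A) complex. Of 18 tested, 0 passed, 9 were higher and 9 lower, and the median was -0.01. Leaving out untreated replicate 1 gave a median of 0.07 and leaving out untreated replicate 2 one of -0.04. With other scalings 7 were higher and 11 lower. CPSF3, the nuclease that cuts both kinds of message (chosen after its values were seen), stood at 21.9 and 17.7 FPKM in untreated cells, as against 19.7 and 22.6 FPKM after formaldehyde, and overlapped. FIP1L1, a subunit of the poly(A) complex, stood at 18.3 and 19.9 against 21.6 and 26.7 FPKM. CPSF2, a partner of the nuclease, stood at 13.0 and 7.96 against 12.6 and 11.1 FPKM, and CSTF1, a cleavage stimulation factor, at 13.6 and 12.0 against 15.5 and 13.0 FPKM. FIP1L1 alone of the 18 had groups that did not overlap, beside 26.9% of all genes tested in either direction. Of 12 genes of cap binding, elongation and export 0 passed, 6 were higher and 6 lower, with a median of 0.01. The median was -0.03 to -0.05 with other scalings and -0.08 without untreated replicate 2. NXF1, the messenger RNA export receptor, stood at 30.6 and 38.1 against 24.0 and 28.1 FPKM, both formaldehyde libraries being lower. ALYREF, an export adaptor, stood at 153 and 117 against 170.1 and 158 FPKM, both being higher. SRRT, which links the cap-binding complex to 3′ processing, stood at 63.7 and 85.04 against 48.3 and 69.4 FPKM and overlapped. Of these 12, 2 were higher without overlap and 1 lower, beside 16.2% and 10.7% of all genes tested.

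Of 24 genes of histone message decay 0 passed, 15 were higher and 9 lower, and the median log2 fold change was 0.10. It was -0.06 without untreated replicate 2. LSM1, a subunit of the ring that binds the oligouridylated tail, stood at 23.0 and 15.7 FPKM in untreated cells, as against 26.7 and 25.3 FPKM after formaldehyde, and LSM4 at 104 and 106 against 115 and 128 FPKM. UPF1, the helicase that starts decay on the stem-loop (chosen after its values were seen), stood at 33.5 and 33.9 against 35.6 and 34.2 FPKM. In these 3 both formaldehyde libraries were above the untreated pair, UPF1 by little. Of the 24, 4 were higher in this way and 0 lower, beside 16.2% and 10.7% of all genes tested. EXOSC10, a nuclease of the nuclear exosome, stood at 53.3 and 44.8 against 45.2 and 38.9 FPKM and overlapped.

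**Figure D4:**
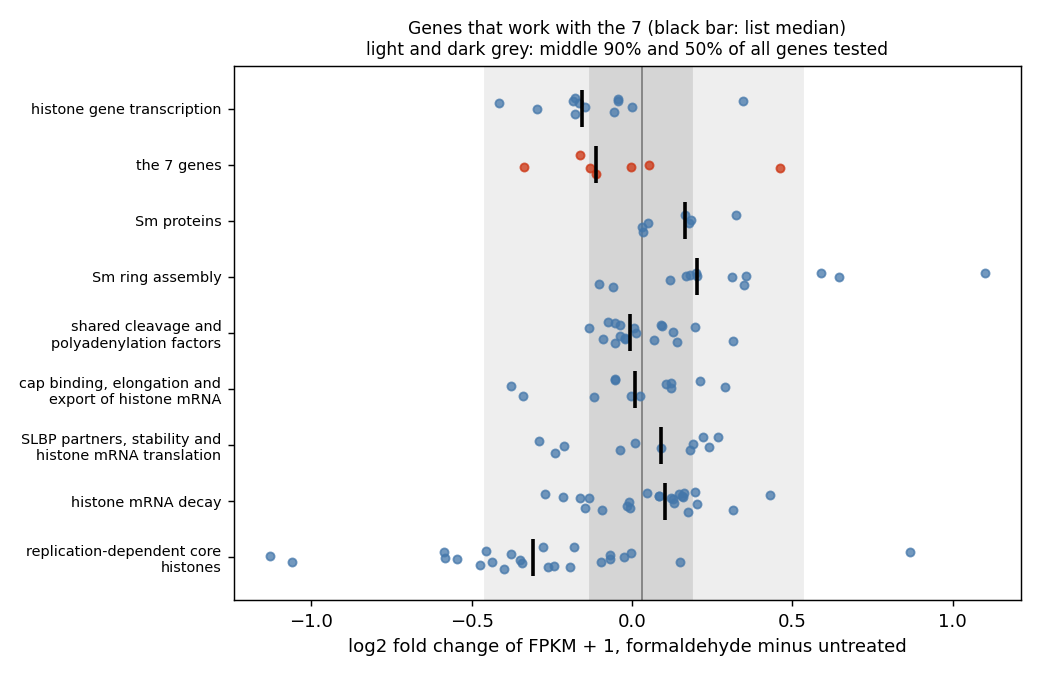
Log2 fold change of FPKM + 1, formaldehyde minus untreated (horizontal axis), for each tested gene of the 7 (red) and of the lists around them (blue), with the list median as a black bar and the middle 50% and 90% of all 12407 genes tested in grey. The medians run from -0.31 for core histones to 0.20 for Sm ring assembly.

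The messages on which these factors act had low FPKM in these libraries. Whether RNA with a poly(A) tail was selected is not given here. These FPKM may therefore not show the level of messages that end in the stem-loop. The summed FPKM of the 61 core histone genes found was 163 and 109 untreated and 119 and 82.2 with formaldehyde, and these groups overlapped. Of the 24 tested 0 passed (limma), 2 had an unadjusted p under 0.05, and 22 were lower and 2 higher, beside 44.9% of all genes tested that were lower. Of the 24, 10 were lower without overlap and 0 higher, beside 10.7% and 16.2% of all genes tested. The median was -0.31, and -0.12 without untreated replicate 1. Of the 4 genes whose stem-loops are printed above, HIST2H2AA3 stood at 13.7 and 9.77 FPKM in untreated cells, as against 8.94 and 6.11 FPKM after formaldehyde. HIST1H2BD stood at 6.002 and 6.61 against 4.82 and 4.70 FPKM. HIST1H4J stood at 3.89 and 2.47 against 2.30 and 3.97 FPKM, and HIST1H2BE at 3.70 and 1.03 against 2.82 and 1.48 FPKM. The former pair were lower in both formaldehyde libraries, and the latter pair overlapped. HIST2H2BE, which had the largest moderated t among core histones, stood at 1.96 and 3.76 against 1.002 and 0.470 FPKM, and HIST1H2BH at 9.15 and 3.84 against 2.22 and 2.51 FPKM. HIST1H4C, below the test's minimum, was at 1.60 FPKM and listed at 0 in untreated cells and at 0.754 and 0.241 FPKM after formaldehyde. Core histone genes are near-identical copies, HIST2H2AA3 in particular, so that the authors' software may have divided their reads unevenly.

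**Figure D5:**
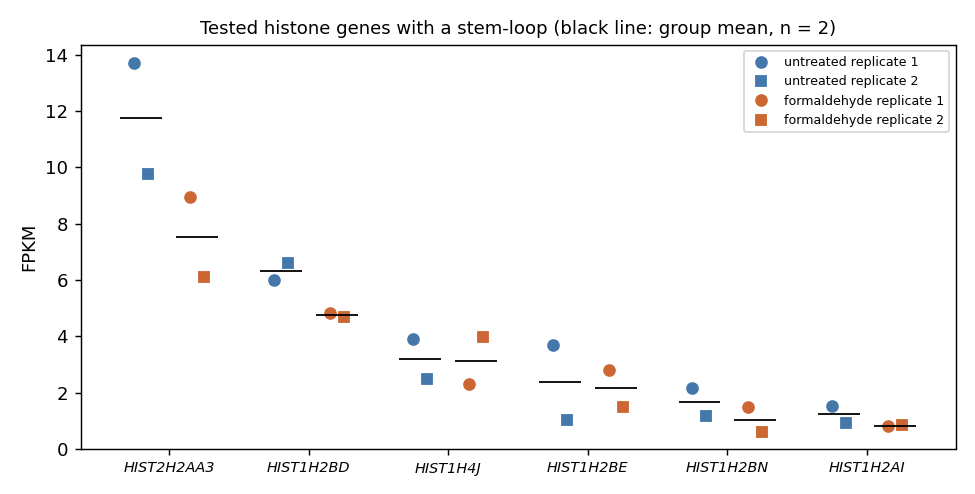
FPKM (vertical axis, from 0) of the 6 tested core histone genes with a stem-loop in the window searched, in each library, with the group mean as a black line. HIST2H2AA3, HIST1H2BD and HIST1H2AI are lower in both formaldehyde libraries, and the other 3 overlap between the groups.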

How the data were processed

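RNA of 4 BEAS-2B libraries was sequenced by the authors. The tools in the submitters' processing notes are Cufflinks 2.0.2, STAR 2.5.2 and FastQC 0.10.0, and the builds hg19 and GRCh37. For trimming, strand and multi-mapped reads the settings were not given in the sources used here. The deposited values are FPKM by the authors, 1 per annotated transcript, with interval bounds and coverage, and were matched to samples by title. FPKM were summed over the transcripts of each gene name, leaving out 894 of 40255 transcripts with no name. Fragment numbers were recovered from the interval bounds for genes with 1 transcript and cover counting error only.

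Genes with a mean of at least 1 FPKM (12407) were tested on log2(FPKM + 1), which understates changes of low genes, with limma 3.58.1 in R 4.3.3 (mean trend, no covariate, two-sided, Benjamini-Hochberg, threshold 0.05), and the script was tested on simulated data. Lists are described by counts and medians. The members and lists were chosen with earlier results of these data known. Named genes are the 7, up to 3 per list with the largest absolute moderated t, SNRPD1, SNRPD2 and the 5 nearest to SLBP; not all are named. Cell type markers come from a list of their own, ATM is named as the neighbour of NPAT, and other genes outside the rule are said to be chosen after their values were seen. HIST1H4C, also in the rule, had a mean under 1 FPKM. Alternatives covered pseudocount, filter, scaling, transcript choice, gene length, the limma settings, the replicate block and each library left out. Medians of lists without a library or with other scalings were added after seeing the data. Tables and figures were made with Python 3.11.15 and matplotlib 3.10.9.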

Additional observations from a re-analysis of the deposited data

How the results depend on the processing

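None of the 7 genes passed the threshold under any of the 15 alternatives run (limma). LSM11, under 5 FPKM on average, was not tested with the filter at a mean of 5 FPKM. NPAT and LSM10 kept their sign in all 15, at -0.28 to -0.04 and 0.32 to 0.61. With the highest transcript of each gene, taken in each library, CASP8AP2 turned to 0.046 and ZNF473 to -0.29. ZNF473 was -0.0042 with libraries rescaled to an equal FPKM sum. Without untreated replicate 1, SLBP became 0.02, LSM11 0.015 and ERI1 0.23. SLBP was 0.12 without formaldehyde replicate 1, and ZNF473 was -0.0503 without formaldehyde replicate 2. Over the 4 fits with 1 library left out, SLBP ran from -0.12 to 0.12, CASP8AP2 from -0.53 to -0.15, LSM11 from -0.27 to 0.015, ZNF473 from -0.0503 to 0.16 and ERI1 from -0.46 to 0.23; the lone library of a group is then assumed to vary like the others. The cause of these changes was not tested. Over all genes 19 passed, 10 higher and 9 lower. That count was 0 with no filter, where 652 of 18317 genes had an unadjusted p under 0.05, 1 with genes of at least 300 nt and 46 to 62 with 1 library left out. With the replicate block 29 genes passed, 14 higher and 15 lower, and 915 had an unadjusted limma p under 0.05, against 343 without it. The labels link libraries of the 2 groups by a number only. The deviations of the replicates numbered 1 from their group means correlated at Pearson's r = 0.25 across 12407 genes, which are not independent replicates. Libraries with the same number correlated at r = 0.917 and 0.923, the untreated pair at 0.903 and the formaldehyde pair at 0.910. Untreated replicate 1 and formaldehyde replicate 2 correlated at 0.914, and the remaining pair at 0.878. Whether libraries with the same number share a batch was not tested. Scaling moved the median of all genes by less than 0.1 on the log2 scale. At this depth the counting interval reached 16.8% either way for LSM11.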
